A study of Mus musculus with 20 samples.

Results

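Primitive blood, the first blood of the mouse embryo, is represented here by 10 genes, chosen by symbol and matched to 10 of the 55573 Ensembl gene identifiers in the count table. They comprise the embryonic globins Hbb-bh1, Hbb-y and Hba-x and the transcription factors Gata1, Gata2, Tal1, Runx1, Lmo2, Klf1 and Spi1. Expression was measured by RNA sequencing in 4 lines of mouse iPSCs (induced pluripotent stem cells, made by reprogramming), during their differentiation through embryoid bodies (EBs), the cell aggregates formed in hanging drops when the factors that hold the cells pluripotent are withdrawn. Each line gave 1 library on each of days 0, 3, 5, 7 and 14, so 20 libraries were available and no line and day was sampled more than once. The lines were WT#1-4 and WT#20D-17, both wild type, and Nox4-/-#5-8 and Nox4-/-#5-23, both lacking Nox4, an NADPH oxidase that generates hydrogen peroxide.

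The study's methods describe reprogramming of embryonic fibroblasts with retroviral Oct4, Sox2, Klf4 and c-Myc, and the iPSCs were kept on fibroblast feeder cells with LIF. How WT#20D-17 was derived is not given in the sources used here. Each line is 1 clone, so a difference between lines may belong to the clone as much as to its genotype. Library totals ran from 20294968 to 27708023 counts. A count of 0 in such a library allows a level of up to 0.111 to 0.154 CPM (counts scaled to the library total, with TMM factors between libraries), which is the level of 3 counts, and this limit covers counting error only. Nox4 itself was counted 7, 22, 21, 12 and 3 times in WT#1-4 (days 0, 3, 5, 7 and 14) and 64, 165, 188, 203 and 56 times in WT#20D-17. It had 0, 2, 0, 1 and 0 counts in Nox4-/-#5-8 and 0 in all 5 libraries of Nox4-/-#5-23. Of the genes that mark the pluripotent state, Zfp42 was at 0 in all 15 libraries of WT#1-4 and the 2 Nox4-/- lines but had 1016 counts in WT#20D-17 on day 0, where Nanog had 9335 counts against 1 to 9 in the other 3 lines.

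In the mouse yolk sac, primitive erythroid cells arise from mesoderm through a bipotent blood and endothelial precursor. Tal1 and Lmo2 act at the base of this program as partners in a DNA-binding complex, Gata2 works in progenitors, and Gata1 with Klf1 directs red cell genes, among them the embryonic globins that are carried in large primitive erythrocytes. Runx1 is needed for the later, definitive blood that buds from endothelium, and Spi1 (PU.1) drives the myeloid fate and opposes Gata1.

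Of the globin genes, Hbb-bh1 and Hba-x were carried above 3 counts by 1 line alone, whereas Hbb-y was found in all 4. Hbb-bh1 (ENSMUSG00000052217, GRCm38 chr7:103841637-103843164, minus strand) and Hbb-y (ENSMUSG00000052187, chr7:103851749-103853216, minus strand) are neighbouring genes for embryonic beta-type chains. Their coding sequences of 444 bases, stop codon included, were 76.4% identical, with 105 differing bases, and shared no identical run longer than 26 bases. The first coding exons are shown because the counts of these 2 genes went different ways in the lines, and the capitals, which mark the 30 of 92 bases at which they differ, show how densely reads could tell them apart. Both are read from the GENCODE M21 transcripts, 5′ to 3′ on the minus strand of GRCm38, at chr7:103843019-103843110 for Hbb-bh1 and chr7:103853061-103853152 for Hbb-y.
Hbb-bh1: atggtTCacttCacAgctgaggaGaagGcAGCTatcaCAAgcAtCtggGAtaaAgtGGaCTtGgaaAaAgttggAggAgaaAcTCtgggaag
Hbb-y: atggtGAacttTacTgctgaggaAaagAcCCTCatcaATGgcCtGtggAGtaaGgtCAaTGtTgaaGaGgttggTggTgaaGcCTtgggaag

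Promoter windows from RefSeq (GRCm38.p6) were found for 7 of the 10 members and not for Hbb-bh1, Lmo2 and Spi1. In the 250 bases before the start site, 3 motifs were searched on both strands: the GATA word (GATA with A or T before it and A or G after it), the CACCC word to which Klf1-type factors bind, and CCAAT. These occurred in 26.5%, 52.0% and 33.8% of 32851 windows of the same length, so each is common. The window of Hbb-y held 1 of each and that of Hba-x held 2 GATA words and 2 CACCC words, whereas the window of Gata1 held 2 CACCC words and no GATA word. The bases ahead of the Hbb-y transcript (chr7:103853217-103853457, minus strand) and 30 bases of the Hba-x window (chr11:32276486-32276515, plus strand) are printed with the motifs in capitals, the GATA word of Hbb-y being read as TTATCA on the printed strand, because these 2 genes shared motifs and yet did not share their pattern across lines. GENCODE starts the Hba-x gene at 32276400, so the printed Hba-x bases, ahead of the RefSeq start, lie within the gene in that annotation. A match is a description of letters and does not show binding.
Hbb-y: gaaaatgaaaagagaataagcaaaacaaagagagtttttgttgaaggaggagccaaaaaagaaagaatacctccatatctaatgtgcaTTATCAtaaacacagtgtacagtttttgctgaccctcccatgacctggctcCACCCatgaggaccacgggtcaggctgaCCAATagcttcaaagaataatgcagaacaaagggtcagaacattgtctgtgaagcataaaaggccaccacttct
Hba-x: tggctcTGATAAcaggctcCACCCtgcaag

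Hbb-bh1 transcripts were found in WT#20D-17 and in no other line. This line had 0, 4, 215, 694 and 5 counts on days 0, 3, 5, 7 and 14, that is 0, 0.171, 9.20, 30.6 and 0.257 CPM, while the other 15 libraries had 0. Hbb-bh1 was thus at 4 or 5 counts on days 3 and 14, well above that on day 5 and highest on day 7. On day 7 its level was at least 270-fold that of WT#1-4, at least 214-fold that of Nox4-/-#5-8 and at least 225-fold that of Nox4-/-#5-23, each against 3 counts in the library at 0. Within WT#20D-17 the day 7 level was 3.33 times that of day 5 (95% counting interval 2.85 to 3.90) and 119 times that of day 14 (50.9 to 368). With 1 library per day, these intervals cover counting error and not the spread between cultures.

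Hba-x (ENSMUSG00000055609, chr11:32276400-32278116, plus strand), which encodes the embryonic zeta-type alpha chain, followed the same course. WT#20D-17 had 0, 2, 32, 246 and 1 counts on days 0, 3, 5, 7 and 14, whereas the other 15 libraries summed to 3 counts, of which 1 was in WT#1-4 and 2 were in Nox4-/-#5-23, both on day 5. On day 7 the level in WT#20D-17 was 10.9 CPM, at least 75.7-fold that of the other 3 lines, none of which had a count. It was 7.92 times the day 5 level of the same line (5.47 to 11.8).

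Hbb-y behaved differently. In WT#20D-17 it had 0, 0, 6, 256 and 0 counts, so its day 7 level of 11.3 CPM was 44.0 times that of day 5 (19.9 to 121) and it was not detected on days 0, 3 and 14. WT#1-4, in contrast, had 421, 207, 126, 77 and 137 counts on days 0, 3, 5, 7 and 14, or 16.2, 8.30, 4.65, 2.91 and 6.78 CPM. The highest value of WT#1-4 was thus in the undifferentiated cells of day 0, where it was 5.55 times that of day 7 (4.34 to 7.17), and it was accompanied by no Hbb-bh1 count in any of the 5 libraries and by 1 Hba-x count in all. The 2 Nox4-/- lines had Hbb-y at lower values, with 8, 22, 7, 2 and 28 counts in Nox4-/-#5-8 and 29, 16, 22, 12 and 108 counts in Nox4-/-#5-23. On day 7 WT#20D-17 was 3.88 times WT#1-4 (2.99 to 5.07), the reverse of the order on days 0, 3, 5 and 14.

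**Figure D1:**
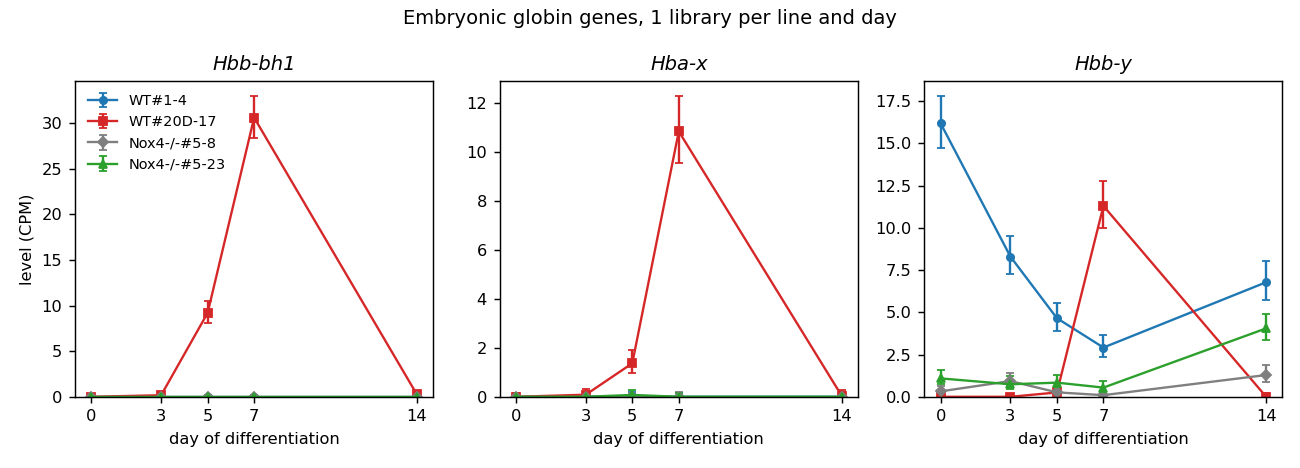
Levels of the 3 embryonic globin genes (y axes, CPM, each panel with its own scale) against the day of differentiation (x axes), with 1 library per point, 1 color per line and 95% Wilson counting intervals as bars. Hbb-bh1 and Hba-x stand above 0 in WT#20D-17 on days 5 and 7, at 30.6 and 10.9 CPM on day 7, whereas Hbb-y is highest in WT#1-4 on day 0, at 16.2 CPM.

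Per kilobase of exon, which allows genes of different length to be set side by side, day 7 of WT#20D-17 held 49.95 CPM of Hbb-bh1, 17.8 of Hbb-y and 11.6 of Hba-x. The other globin genes were scarcer. Hba-a1, an adult alpha-globin gene whose reads are hard to part from those of the near-identical Hba-a2, had 29, 8, 56, 168 and 6 counts in WT#20D-17 and at most 6 in any other library. Hbb-bs, an adult beta-globin gene, reached 14 counts on day 7 in WT#20D-17 and at most 4 elsewhere, and Hbb-bt, Hbb-bh0 and Hbb-bh2 were at 0 in all 20 libraries.

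Among the transcription factors, Tal1 was highest in WT#20D-17 on day 5, before the globins were. Lmo2 was about level there on days 5 and 7, with day 5 at 1.02 times day 7 (0.768 to 1.35). Tal1 (ENSMUSG00000028717, chr4:115056426-115071755) had 24, 11, 83, 43 and 4 counts in WT#20D-17 on days 0, 3, 5, 7 and 14. WT#1-4 had 2, 0, 6, 5 and 0 counts, Nox4-/-#5-8 had 0, 4, 1, 1 and 0, and Nox4-/-#5-23 had 0, 2, 0, 0 and 0. WT#20D-17 was the highest line on every day, and its day 5 level was 7.57 times its day 3 level (4.02 to 15.7). On day 5 it was 16.0 times WT#1-4 (7.06 to 45.0) and at least 31.1-fold Nox4-/-#5-23, which had no count.

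Lmo2 (ENSMUSG00000032698, chr2:103957986-103981878), the bridging protein of the Tal1 complex, had 32, 20, 106, 101 and 24 counts in WT#20D-17. The other lines were lower up to day 7 and then overlapped or exceeded it, since WT#1-4 had 5, 7, 7, 20 and 91 counts, Nox4-/-#5-8 had 0, 12, 20, 26 and 27, and Nox4-/-#5-23 had 4, 6, 22, 30 and 66. On day 14 WT#1-4 was 3.65 times WT#20D-17 (2.31 to 5.99). Lmo2 lies across a gene on the opposite strand, 4931422A03Rik, which had at most 18 counts in a library.

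Gata2 (ENSMUSG00000015053, chr6:88193891-88207032), the factor of progenitors, was present in all 20 libraries, and in WT#20D-17 its highest level came after the globin peak. WT#20D-17 had 10, 83, 252, 416 and 574 counts, so that its day 14 level of 29.5 CPM was 72.5 times its day 0 level (39.1 to 152). WT#1-4 had 17, 103, 98, 123 and 48 counts, Nox4-/-#5-8 had 62, 139, 97, 58 and 58, and Nox4-/-#5-23 had 54, 28, 54, 48 and 64. WT#20D-17 was the lowest line on day 0 and the highest from day 5 on.

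Gata1 (ENSMUSG00000031162, chrX:7959260-7978071), the factor of red cells and megakaryocytes, peaked before the globins. WT#20D-17 had 37, 160, 34, 32 and 8 counts, and its day 3 level was 4.54 times that of day 0 (3.16 to 6.68) and 4.84 times that of day 7 (3.29 to 7.31). On day 3 it was 6.81 times WT#1-4 (4.45 to 10.8), 11.5 times Nox4-/-#5-8 (6.67 to 21.6) and 18.5 times Nox4-/-#5-23 (9.15 to 43.5). The values of the other lines were 7, 25, 19, 17 and 5 counts in WT#1-4, 14, 14, 19, 13 and 6 in Nox4-/-#5-8, and 0, 8, 5, 13 and 3 in Nox4-/-#5-23. On day 7, with the globins at their highest, Gata1 stood at 1.41 CPM in WT#20D-17.

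Klf1 (ENSMUSG00000054191, chr8:84901928-84905291), which activates beta-like globin genes, was low in all 20 libraries. It had 13, 13, 7, 13 and 4 counts in WT#20D-17, 2 to 6 in WT#1-4, 3 to 8 in Nox4-/-#5-8 and 4 to 8 in Nox4-/-#5-23, and no level exceeded 0.574 CPM. Spi1 (ENSMUSG00000002111, chr2:91082390-91115756) was lower still, with 5, 2, 1, 4 and 8 counts in WT#20D-17, 0 to 2 in WT#1-4, 0 to 3 in Nox4-/-#5-8 and 0 or 1 in Nox4-/-#5-23. Only 3 libraries, all of WT#20D-17, held more than 3 Spi1 counts, and the level of this gene was therefore hardly measurable at this depth.

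Runx1 (ENSMUSG00000022952, chr16:92601466-92826149) was the most abundant member in counts and had another order of lines. Nox4-/-#5-23 had 834, 589, 1211, 1240 and 2022 counts on days 0, 3, 5, 7 and 14, WT#1-4 had 479, 550, 510, 845 and 1034, WT#20D-17 had 143, 166, 265, 301 and 133, and Nox4-/-#5-8 had 150, 135, 152, 135 and 262. A wild type line and a Nox4-/- line were thus high, and the other line of each genotype was low. The day 14 level was 2.78 times the day 0 level in WT#1-4 (2.49 to 3.10), 2.42 times in Nox4-/-#5-23 (2.23 to 2.63) and 2.00 times in Nox4-/-#5-8 (1.63 to 2.46). In WT#20D-17, in contrast, it was highest on day 7, at 1.94 times the day 14 level (1.58 to 2.40). Runx1 is not restricted to blood, and the antisense gene Gm26626, which overlaps it, had at most 2 counts.

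**Figure D2:**
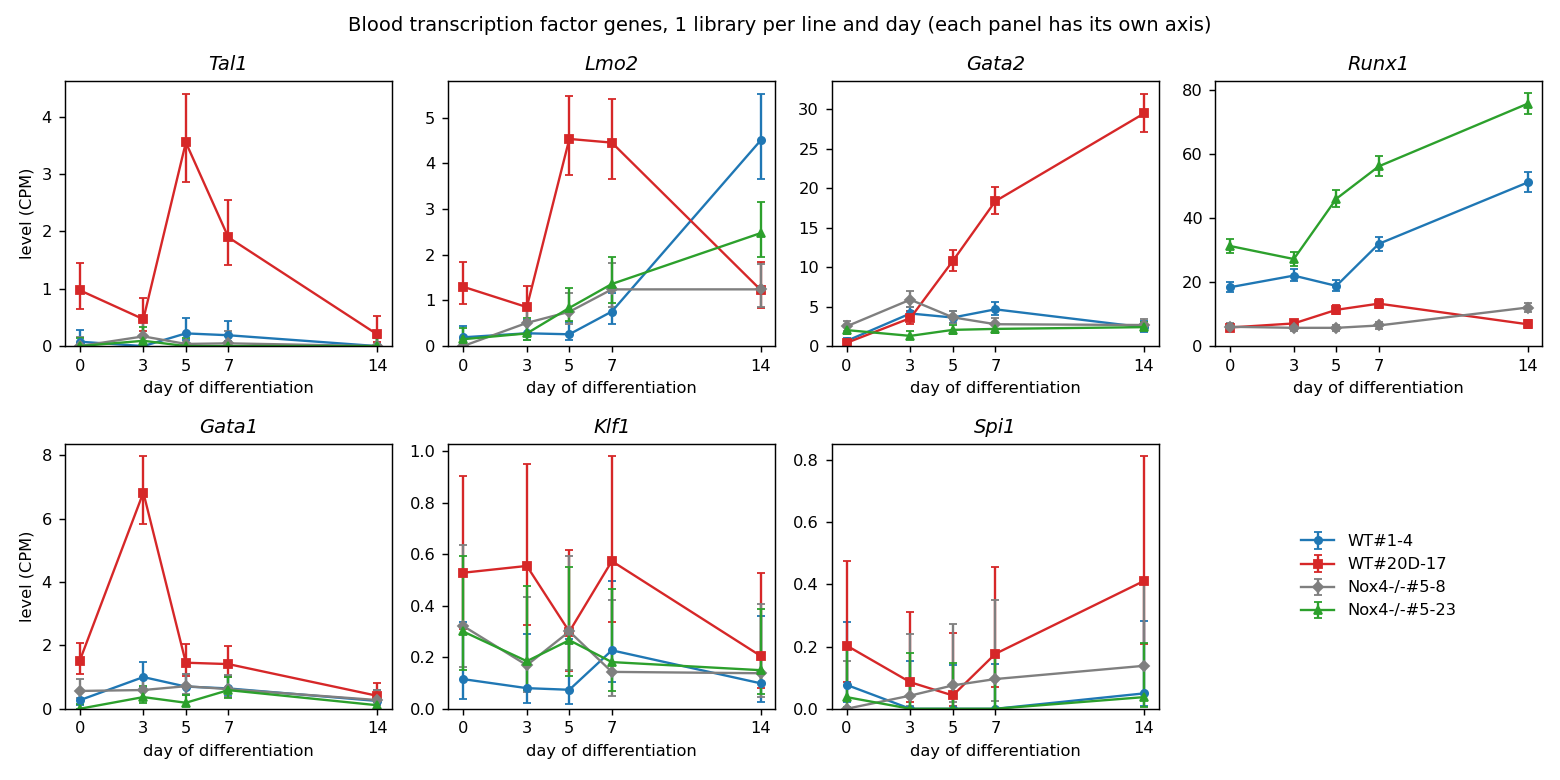
Levels of the 7 transcription factor genes (y axes, CPM, each panel with its own scale) against the day of differentiation (x axes), with 1 library per point and 95% Wilson counting intervals as bars. In WT#20D-17 Gata1 is highest on day 3, Tal1 on day 5 and Gata2 on day 14, whereas Runx1 is highest in Nox4-/-#5-23 on all 5 days.

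Counted together, all 10 members had more than 3 counts on at least 1 day in WT#20D-17, against 7 in WT#1-4, 7 in Nox4-/-#5-8 and 6 in Nox4-/-#5-23. Day 7 of WT#20D-17 was the only library in which all 10 passed 3 counts, and day 5 of that line held 9. Globin transcripts of primitive red cells, Hbb-bh1 and Hba-x, were thus found beside Tal1 and Lmo2 in WT#20D-17 on days 5 and 7. Hbb-bh1 and Hba-x were not detectable above 3 counts in the other 3 lines on any day. Gata1 did not rise with these globins in WT#20D-17, at 37 counts on day 0, 34 on day 5 and 32 on day 7. Klf1 had 13, 7 and 13 counts there on the same days. No cells were counted, and in bulk RNA fewer cells of a type and less RNA per cell cannot be told apart.

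Lines were next compared over the 5 days by edgeR's quasi-likelihood test with the day as a covariate, in 6 pairs. The spread in this test is that between the days of a single clone of each line, so its p-values do not speak for other clones of the genotype, and the 3 pairs with WT#20D-17 share its libraries. Of the members, 7 passed the filter on low counts. Hbb-bh1, Hba-x and Spi1 did not, since a gene high in 1 or 2 libraries fails it.

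Against WT#1-4, WT#20D-17 had 6 of 7 members called at an adjusted p under 0.05, where 51.5% of 18474 genes were called, although both clones are wild type. Of the 7, 5 were higher, where 26.5% of genes were, and 1 was lower, where 25.1% were. Tal1 was higher by 3.74 ± 0.79 on the log2 scale (SE, 5 libraries each, edgeR adjusted p = 0.0008), Lmo2 by 1.86 ± 0.71 (adjusted p = 0.0368), Klf1 by 1.78 ± 0.43 (adjusted p = 0.0026), Gata2 by 1.77 ± 0.67 (adjusted p = 0.0368) and Gata1 by 1.76 ± 0.54 (adjusted p = 0.0114). Runx1 was lower, at -1.62 ± 0.24 (adjusted p = 3.38e-05). Hbb-y, at -3.46 ± 1.74, did not pass (adjusted p = 0.108), but without day 7, the day on which WT#20D-17 held nearly all its Hbb-y counts, it was called lower (edgeR adjusted p = 0.000209). The Gata1 call rested on day 3, without which the difference was 1.38, and the Gata2 call was lost without day 5 (1.87), day 7 (1.70) or day 14 (1.12). The Lmo2 call was lost without any of days 0, 3, 5 and 7, at 1.53, 1.94, 1.41 and 1.77.

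Against WT#20D-17, Nox4-/-#5-8 had 3 of 7 members called (56.2% of genes in either direction), all lower, where 29.1% of genes were called lower. These were Tal1 (-4.53 ± 0.89, edgeR adjusted p = 0.000376), Lmo2 (-2.12 ± 0.69, adjusted p = 0.0148) and Gata1 (-1.63 ± 0.54, adjusted p = 0.0165). Nox4-/-#5-23 had 5 of 7 called (56.7% of genes), of which 4 were lower, where again 29.1% of genes were called lower, and 1 was higher, where 27.6% of genes were called higher. Tal1 (-5.85 ± 0.99, adjusted p = 9.49e-05), Gata1 (-3.02 ± 0.58, adjusted p = 0.000321), Gata2 (-2.18 ± 0.71, adjusted p = 0.0146) and Lmo2 (-1.86 ± 0.68, adjusted p = 0.0264) were the lower members, and Runx1 (2.34 ± 0.25, adjusted p = 5.98e-07) was the higher one. For Nox4-/-#5-8 the Gata1 call was lost without day 3 (-1.10) and the Lmo2 call without day 0 (-1.63) or day 5 (-1.98). For Nox4-/-#5-23 the Gata2 call was lost without day 5, 7 or 14 (-2.17, -1.91 and -1.55) and the Lmo2 call without day 0, 3, 5 or 7 (-1.52 without day 0 and -1.68 without day 5). Calls were also gained: without day 7 Hbb-y was called higher in Nox4-/-#5-8 (edgeR adjusted p = 0.0293) and in Nox4-/-#5-23 (adjusted p = 0.00468), and with RLE scaling Klf1 passed in Nox4-/-#5-23 (adjusted p = 0.0427) and, narrowly, in Nox4-/-#5-8. Tal1 had at most 6 counts and Klf1 at most 8 in a library of another line, so both passed the filter on low counts through WT#20D-17. Their differences from that line, whether against WT#1-4 or a Nox4-/- line, are not independent of the filter.

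Between the other 3 lines, Runx1 was the only member called in the fit with the filter and all days. Nox4-/-#5-8 was below WT#1-4 by 1.95 ± 0.24 in log2 units (edgeR adjusted p = 4.29e-05, with 16.5% of genes called), and Nox4-/-#5-23 was above Nox4-/-#5-8 by 2.67 ± 0.25 (adjusted p = 9.64e-06, with 8.23% of genes called). Nox4-/-#5-23 was above WT#1-4 by 0.72 ± 0.23 (adjusted p = 0.0388, with 19.7% of genes called), a call that was lost without day 0, 3, 5 or 7 (0.70, 0.81, 0.59 and 0.70). The 2 Nox4-/- lines thus lay on either side of WT#1-4. Other settings added members. Hbb-y was called lower in Nox4-/-#5-8 than in WT#1-4 without the filter (edgeR adjusted p = 0.0289), by DESeq2 and without day 7 (edgeR adjusted p = 0.0148). Tal1 was called lower in Nox4-/-#5-23 than in WT#1-4 without day 3 (edgeR adjusted p = 0.0114), where Nox4-/-#5-23 had no count left.

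**Figure D3:**
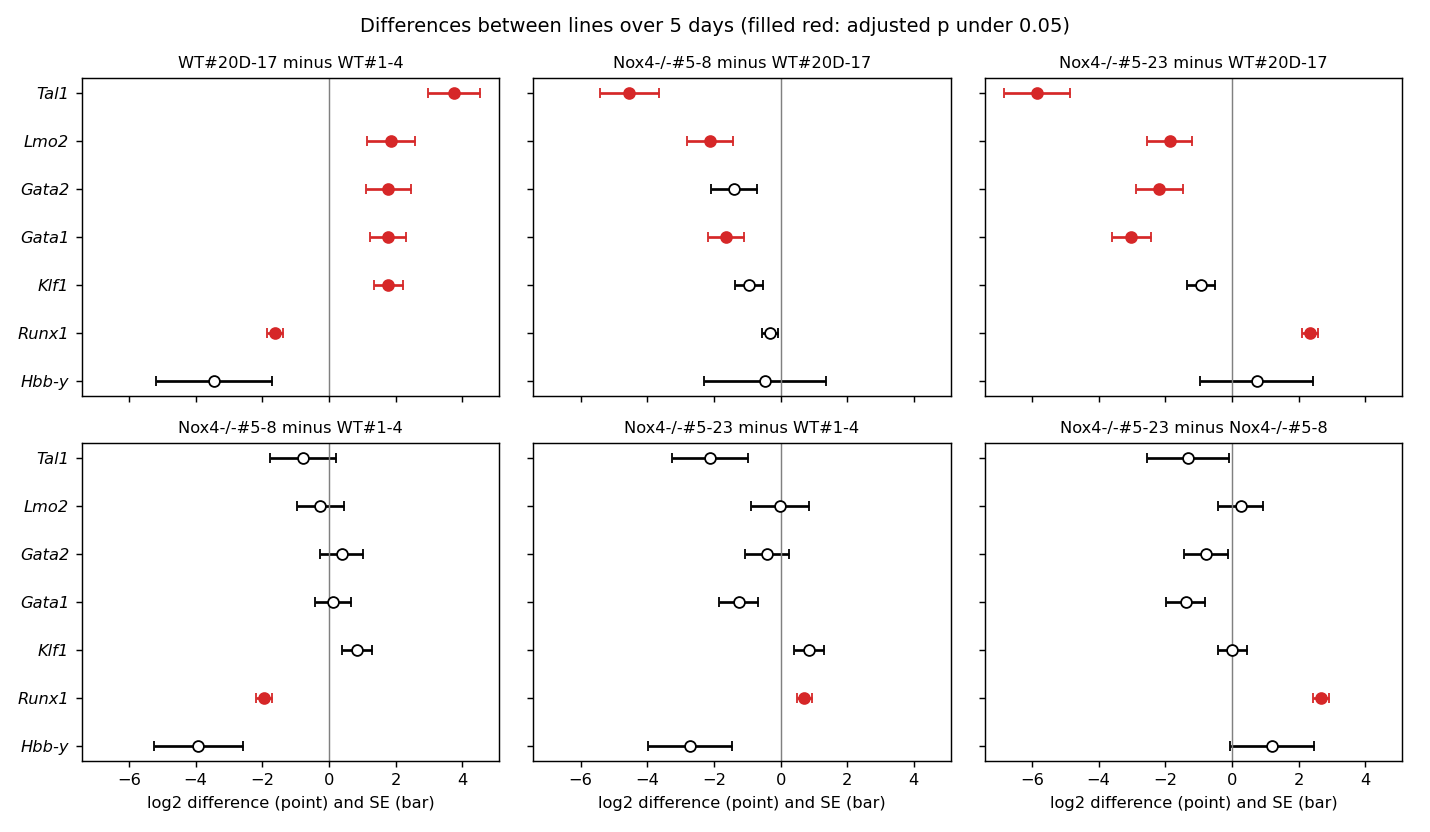
Log2 differences between pairs of lines over 5 days (x axes, points, with SE as bars) for the 7 members that passed the filter on low counts (y axes). Filled red points have an edgeR adjusted p under 0.05. Tal1, Lmo2 and Gata1 are called in all 3 pairs that include WT#20D-17, whereas the 3 other pairs have Runx1 alone.

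For the 3 members left out by the filter, the same test was run on 33696 genes without it, where 15.7% of genes were called higher in WT#20D-17 than in WT#1-4. Hbb-bh1 (edgeR adjusted p = 3.05e-06) and Hba-x (adjusted p = 6.17e-05) were called higher, calls that DESeq2 did not make (adjusted p = 0.0603 and 0.253), and Spi1, at 2.65 ± 1.03, was not (adjusted p = 0.0561). Both globins were also called lower in Nox4-/-#5-8 (17.7% of genes called lower) and in Nox4-/-#5-23 (18%) than in WT#20D-17, and Spi1 in Nox4-/-#5-23 only, by 3.19 ± 1.09 (adjusted p = 0.0253), at 20 counts over 5 libraries against 2. DESeq2 did not call the 2 globins in these pairs either, with adjusted p = 0.0580 and 0.195 for Nox4-/-#5-8 and 0.0549 and 0.265 for Nox4-/-#5-23. Fitted differences of the globins depend on a prior count, since the other side is at or near 0, so the folds against 3 counts stand in their place.

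The genotypes were compared in the way the study's methods describe, with WT#1-4 against both Nox4-/- lines and the days pooled in edgeR's exact test. At a false discovery rate of 0.01, with 5.62% of genes called in either direction, 1 of 10 members was called lower in Nox4-/- cells, where 3.97% of 33860 genes were called lower, and no member was called higher, where 1.65% were. The called member was Hbb-y, at -2.94 in log2 units (adjusted p = 2.56e-05). The 33860 genes had a count in at least 1 of all 20 libraries, of which this test used 15. In those 15 Hbb-bh1 had no count and Hba-x at most 2 in a library, so the test does not speak for these 2 members. With the filter on low counts 5 members were tested and Hbb-y was again the 1 called, where 9.95% of 16095 genes were called. With the days pooled, days stand in for replicates. When WT#20D-17 served as the wild type line, the Hbb-y call was lost at -1.21, and the 5 members called lower were Tal1, Gata1, Gata2, Hbb-bh1 and Hba-x, where 16% of genes were called lower. With both wild type lines, Tal1 (-4.28, adjusted p = 0.00156) and Hbb-bh1 (adjusted p = 0.00458) were called lower and Hbb-y was not, where 9.46% of genes were called lower. Leaving out Nox4-/-#5-23 added Runx1 at -1.99 (adjusted p = 8.58e-06), and with the counts of each line summed over days, 4 lines in all, Hbb-y stood at -2.23 and was not called.

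With both wild type lines against both Nox4-/- lines on each day, 0 of 9 tested members passed edgeR's quasi-likelihood test at 0.05 on days 0, 3, 5, 7 or 14. The shares of all 19240 genes called on these days were 0.0312%, 0.0104%, 0.0104%, 0.0156% and 0.478%. At an unadjusted p under 0.05 there was 1 member on each of days 0, 5, 7 and 14 and 0 on day 3, namely Tal1 on days 0 and 5, Hba-x on day 7 and Gata2 on day 14. Of the 19240 genes, 1576, 1242, 1424, 1573 and 4067 stood under that threshold on days 0, 3, 5, 7 and 14. DESeq2 called Hbb-bh1 on days 5, 7 and 14 and Gata2 on day 14, where it called 2.48%, 3.37% and 13.1% of genes, and limma-voom called 0 members. The 2 wild type lines stood far apart. On day 7 WT#20D-17 had 694 Hbb-bh1 and 246 Hba-x counts, whereas WT#1-4 and both Nox4-/- lines had 0 of each. Fits were also made with 1 wild type line left out. Without WT#20D-17 only 5 members were tested. Hbb-bh1, Hba-x, Tal1, Klf1 and Spi1 were not in that fit, so its lack of calls does not speak for them. Hbb-bh1, Hba-x and Tal1 had at most 0, 2 and 4 counts in a Nox4-/- library. In the fit without WT#1-4 these genes passed the filter on low counts through WT#20D-17, so their lower calls are not independent of the filter. Without WT#1-4, which leaves WT#20D-17 as the sole wild type line and assumes that it varies like the other groups, 5 members were called lower on day 7, namely Hbb-bh1, Hba-x, Hbb-y, Tal1 and Gata2, where 13% of 19927 genes were called lower. The same fit called Tal1 and Lmo2 lower on day 0 (11.5% of genes), Tal1 and Hbb-bh1 lower on day 5 (13.1%), and Gata2 lower (16.6%) and Hbb-y higher (14.1%) on day 14. Without WT#20D-17, edgeR called 0 members on days 0, 3, 5, 7 and 14, where it called 1.19%, 0.638%, 0.429%, 0.793% and 7.68% of genes, and 1 member on each of the first 4 days and 0 on day 14 had an unadjusted p under 0.05.

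The change of the genotype difference over days was called for 0 of 9 members by edgeR, where 0% of genes were called, and for 0 by DESeq2. At an unadjusted p under 0.05 edgeR had 1 member (Gata2) and 262 of 19240 genes. For the change over days in the 4 lines, edgeR called 0 of 6 tested members, where 8.52% of 17827 genes were called. DESeq2 called 0 as well, where it called 15.3% of 18982 genes. At an unadjusted p under 0.05 edgeR had 0 members and 3452 genes, and DESeq2 had 3 members and 4438 genes. With the line as a replicate block, which takes out the standing differences between clones, 2 of 7 members were called, where 28.7% of 18474 genes were. These were Runx1 (adjusted p = 0.0141) and Lmo2 (adjusted p = 0.0156). On day 14 against day 0 Lmo2 was higher by 3.47 ± 0.82 in log2 units (adjusted p = 0.00294) and Runx1 by 1.09 ± 0.27 (adjusted p = 0.00366), where 21.9% of genes were called higher. Without WT#20D-17 these became 4.56 and 1.29, where 25.5% of genes were called higher. Hbb-y was then also called over days, where 37.2% of genes were, and on day 7 it fell by 1.79 from day 0 (adjusted p = 0.0389), where 13.6% of genes were called lower. Without WT#1-4, Nox4-/-#5-8 or Nox4-/-#5-23 the calls over all days were lost, and the Runx1 call on day 14 was lost without Nox4-/-#5-23.

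The genes around the members were read from lists of pathway and cell type genes, each counted over those that passed the filter on low counts, and some genes stand in more than 1 list. A gene that is high in 1 line alone can pass that filter only through it, as T and Mixl1 do, so the counts and medians describe the lists and do not support a direction. In WT#20D-17 against WT#1-4, 26.5% of all genes were called higher and 25.1% lower. Among genes of mesoderm before blood, 6 of the 8 tested were higher and 1 lower in WT#20D-17 than in WT#1-4, with a median of 3.31 in log2 units against 0.00 over all genes. T (brachyury), the marker of nascent mesoderm, had 76, 1017, 146, 74 and 2 counts in WT#20D-17 on days 0, 3, 5, 7 and 14 and at most 22 in the other lines. Mixl1 had 475 counts and Mesp1 126 counts on day 3 in WT#20D-17, against at most 3 and 18 elsewhere. Of the genes of the blood and endothelial precursor, 9 of 16 were higher and 3 lower, with a median of 2.38. Kdr, the VEGF receptor that marks that precursor, had 8, 960, 1283, 687 and 293 counts in WT#20D-17 and at most 76 elsewhere. Etv2, which drives the same step, had 87, 60, 37, 9 and 0 counts in WT#20D-17 and at most 5 elsewhere, and Fli1 had 64 counts on day 7 against at most 4 elsewhere. The order of highest days in WT#20D-17 was thus day 0 for Etv2, day 3 for T and Gata1, day 5 for Kdr and Tal1, and day 7 for Fli1 and the 3 globins. Of the other members, Runx1 was highest on day 7 and Gata2 and Spi1 on day 14. Lmo2 was about level on days 5 and 7, and Klf1 had 13 counts on each of days 0, 3 and 7. Each day is 1 library.

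Erythroid genes were less uniform. Of 15 tested, 6 were higher and 2 lower in WT#20D-17 than in WT#1-4, with a median of 0.54, and the higher ones included Zfpm1 (FOG-1, the Gata1 partner) at 3.65 ± 0.39 (edgeR adjusted p = 8.53e-07) and Alas2, the red cell enzyme of heme synthesis, at 2.33 ± 0.72 (adjusted p = 0.0126). Slc4a1, the anion exchanger of the red cell membrane, had 26 counts on day 7 in WT#20D-17 and at most 3 in the other lines. Gypc and Aqp1 were lower, at -3.76 and -3.22, and both are also transcribed outside blood. Hemgn, Rhag, Tspo2 and Redrum did not pass 3 counts in WT#20D-17 on any day. Of the 26 listed erythroid genes, 22 passed 3 counts on at least 1 day in WT#20D-17. This compares with 19 in WT#1-4, 15 in Nox4-/-#5-8 and 16 in Nox4-/-#5-23. Of the 8 heme synthesis genes, which all cells use, 3 were higher and 1 lower in WT#20D-17 than in WT#1-4, with a median of 0.11. Among the 8 partners of the Tal1 and Runx1 complexes, 1 was higher (Ssbp3) and 1 lower (Ssbp2).

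Other blood lineages were represented by fewer counts. Of 10 megakaryocyte genes tested, 1 (Itga2b) was higher and 4 were lower in WT#20D-17 than in WT#1-4, with a median of 0.01, although Pf4 had 30 counts on day 7 in WT#20D-17, against at most 7 elsewhere. Of 11 macrophage and leukocyte genes, 5 were higher and 2 lower, with a median of 0.84. The complement genes C1qa, C1qb and C1qc had 28, 21 and 31 counts on day 14 in WT#20D-17, whereas in the other lines they had at most 1, 10 and 5. Csf1r had 688 counts on that day, and Ptprc, the pan-leukocyte marker, had 9. Spi1 had its highest count, 8, in that library, and the embryonic globins stood at 6 counts in sum there. The summed level of the 26 genes of this list was 149.9 CPM in it, below the 185 CPM of Nox4-/-#5-8 on day 14. Of these genes, however, 22 had more than 3 counts in WT#20D-17 on that day and 8 in Nox4-/-#5-8. A set of 7 macrophage markers summed to 105 CPM in WT#20D-17 on day 14 and to at most 57.4 CPM in the other lines. All 7 passed 3 counts in the former library, against 3 in WT#1-4 on day 14, where the 57.4 CPM stood. This sum can rest on few genes, since it was 53.3 CPM in WT#20D-17 on day 5, when only 2 of the 7 passed 3 counts.

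Against WT#1-4, 6.45% of all genes were called higher and 10% lower in Nox4-/-#5-8, and 8.35% and 11.4% in Nox4-/-#5-23. Of the 15 erythroid genes 0 were higher and 3 lower in each, and of the 16 precursor genes 0 were higher and 4 lower in Nox4-/-#5-8 and 1 was higher (Hhex) and 3 lower in Nox4-/-#5-23. Aqp1 and Car2 were among the lower erythroid genes in both comparisons, which share the WT#1-4 libraries.

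Markers of other cell types differed between the lines along with the members. The summed level of 5 extraembryonic endoderm markers, the yolk sac neighbors of primitive blood, ran from 546 to 1263 CPM in WT#20D-17 and from 0.443 to 4.39 CPM in the other 3 lines, with Ttr at 0 in both Nox4-/- lines. Fibroblast markers (5 genes) ran from 8.62 CPM on day 0 to 2810.5 CPM on day 14 in WT#20D-17 and from 4.67 to 20.5 CPM in the Nox4-/- lines, and they were at 35.1 CPM or more in WT#1-4. Endothelial markers (6 genes) ran from 17.8 to 179.9 CPM in WT#20D-17 and from 159 to 540.4 CPM in the others. In the others Tek led these markers, with 2619 to 9206 counts on day 7. A longer list of 12 endothelial genes had another order, highest in WT#1-4 on days 0 and 3 and in WT#20D-17 from day 5 on. On day 14 that list summed to 510.5 CPM in WT#20D-17 and at most 137.0 CPM in the others. The pluripotency markers (5 genes) stood at 2562 CPM on day 0 and 69.2 CPM on day 14 in WT#20D-17, and at 1276 to 5828 CPM in the others, nearly all of it Pou5f1, the gene that encodes the reprogramming factor Oct4. The part that such differences in makeup have in the line differences of the members was not tested.

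**Figure D4:**
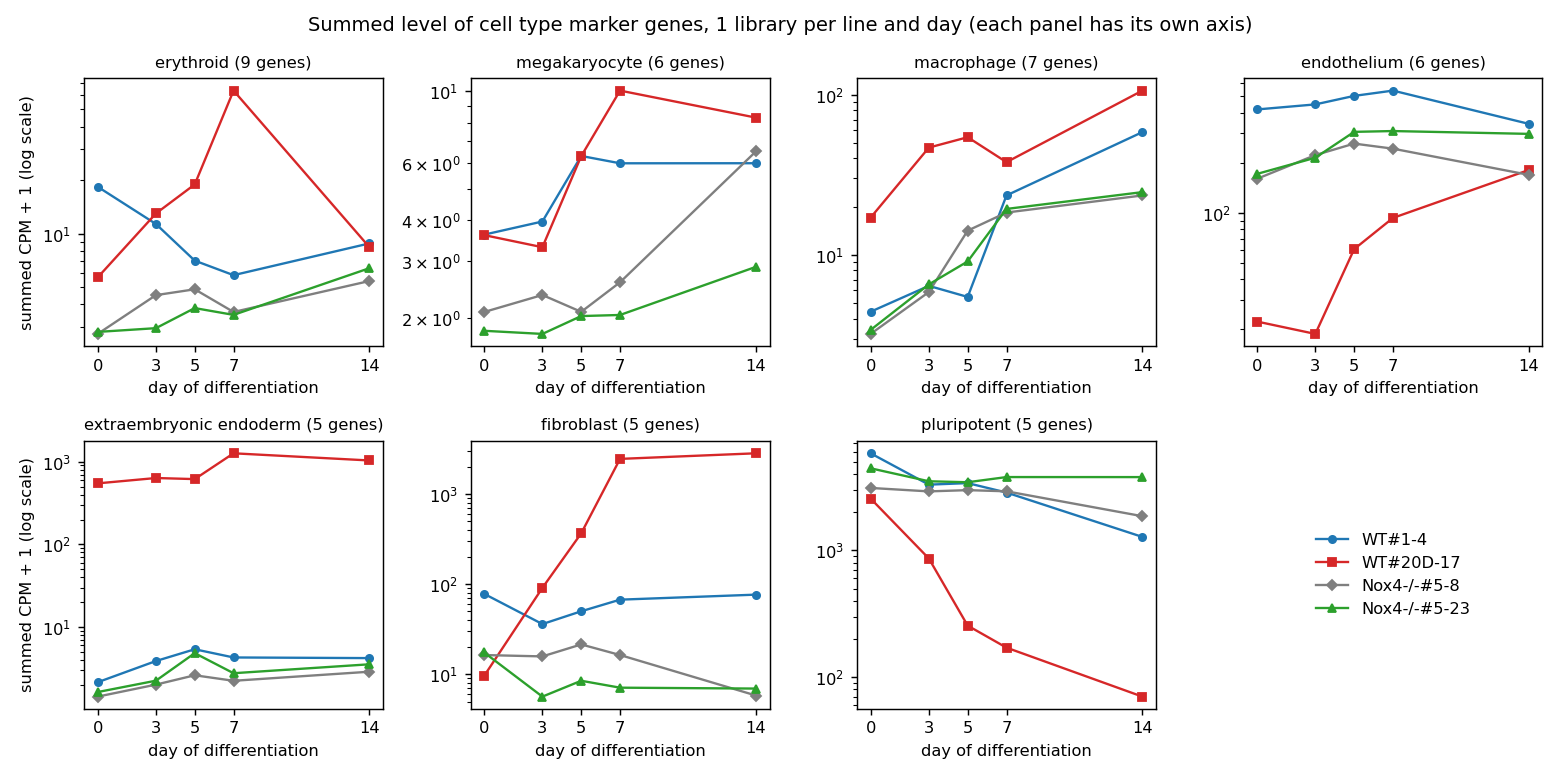
Summed levels of cell type marker genes (y axes, CPM plus 1 on a log scale, each panel with its own scale) against the day of differentiation (x axes), with 1 library per point. Erythroid markers, which include the 3 globins, Gata1 and Klf1, reach 62.8 CPM on day 7 in WT#20D-17 and at most 17.4 CPM in the other lines. The 3 globins alone make up 52.8 CPM of the former, and Hbb-y alone 16.2 CPM of the latter, on day 0 in WT#1-4. That panel therefore mostly repeats the globin values. Extraembryonic endoderm markers stay between 546 and 1263 CPM in WT#20D-17.

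Genes with patterns most like those of the members were sought among 16509 genes by Pearson's r of log2(CPM + 1) over the 20 libraries, which share 4 clones and are not independent. For the summed globins the highest were Corin (0.818) and Smoc2 (0.814), where the sum joins the Hbb-y of WT#1-4 to the 3 globins of WT#20D-17. For Gata1 they were Ltb (0.946), T (0.940), Car3 (0.897), Mixl1 (0.879) and Grrp1 (0.879), and for Spi1 Atp8b1 (0.874) and Emilin3 (0.872). For Hbb-bh1 alone, a choice made after its values were seen, they were led by Tie1 (0.974), an endothelial receptor, Tdo2 (0.967) and 5033428I22Rik (0.961), and Plg (0.957) and Mecom (0.954) came next. Between members, Hbb-bh1 was nearest to Hba-x (0.963) and Tal1 (0.844), and its r with Hbb-y was 0.214 and with Gata1 0.302.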

How the data were processed

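RNA was sequenced from 20 libraries with a stranded mRNA kit. Per the labels, the authors used STAR 2.6.0c, RSEM 1.3.1 and the GRCm38 (mm10) build, and they deposited expected counts (RSEM estimates) per gene, of which 9.921% had decimals. These were rounded to whole numbers here, and all values of the members were whole already. Symbols came from GENCODE M21, which held 55480 of the 55573 identifiers. Sample titles give day 14 for the last time point, whereas the protocol text gives 10, and the titles were followed.

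Groups were the 4 lines and 5 days. edgeR 4.0.16 gave TMM scaling, the exact test for the pooled comparison (FDR 0.01) and quasi-likelihood tests for the other comparisons (FDR 0.05, Benjamini-Hochberg), fitted on all genes. DESeq2 1.42.0, limma 3.58.1, other scalings and filters and the omission of each line or day were alternatives. Count tests were tested on simulated data. Intervals are 95% Wilson intervals for levels and exact binomial ones for ratios, and they cover counting error only. Nothing states that libraries came from separate cultures, so p-values measure the spread between these libraries.

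Libraries of the same line deviated together, with a mean correlation between days of 0.678 in WT#1-4, 0.814 in WT#20D-17, 0.726 in Nox4-/-#5-8 and 0.780 in Nox4-/-#5-23 and a lowest value of 0.442, so the line was used as a block where stated. Named genes were the 10 members, genes of the lists and the genes most like the globin sum, Gata1 and Spi1, and, chosen after values were seen, those most like Hbb-bh1 and the genes that overlap members. Members and lists were chosen with earlier results of these data known. Some genes of the lists are not reported here by name.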

Additional observations from a re-analysis of the deposited data

Results flagged for a closer look

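For 3 members the sign of the change from day 0 to a later day was the same in both wild type lines and the opposite in both Nox4-/- lines. These are single libraries at low counts or small changes, and the difference was not tested. Tal1 on day 3 minus day 0 differed by -0.44 between the genotype means on the log2(CPM + 1) scale, but went from 2 to 0 counts in WT#1-4, 24 to 11 in WT#20D-17, 0 to 4 in Nox4-/-#5-8 and 0 to 2 in Nox4-/-#5-23, and the interval of its day 0 to day 3 ratio in WT#20D-17 (0.980 to 4.70) includes no change. Runx1 on day 3 differed by 0.38, with day 3 at 1.20 times day 0 in WT#1-4 (1.06 to 1.36) and 1.22 times in WT#20D-17 (0.969 to 1.54), and day 0 at 1.06 times day 3 in Nox4-/-#5-8 (0.832 to 1.34) and 1.15 times in Nox4-/-#5-23 (1.03 to 1.28). Klf1 on day 7 differed by 0.26, with 13 counts on both days in WT#20D-17 (ratio 1.09, 0.464 to 2.54) and at most 8 counts in the other lines, where each interval also includes no change.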

How the results depend on the processing

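Counts of called genes depended on which wild type line entered. The pooled exact test called 1903 genes, 1219 at FDR 0.001, 8755 when WT#20D-17 replaced WT#1-4, 4074 with both wild type lines, 1227 by the quasi-likelihood test and 0 with days summed. For genotype on days 0, 3, 5, 7 and 14 edgeR called 6, 2, 2, 3 and 92 genes. FDR 0.01 gave 2, 1, 1, 1 and 3, DESeq2 650, 405, 463, 585 and 2450, and no low-count filter 37, 12, 14 and 17 on the first 4 days. The limma-voom replicate block (correlation 0.508) gave 4, 5, 6 and 30 on days 3 to 14, and RLE scaling 5 on day 5. Without 1 line the ranges were 0 to 3956, 0 to 3669, 0 to 4561, 0 to 4304 and 0 to 6120, each highest without WT#1-4. The interaction called 0 genes, 22 by DESeq2, 5 with the line as a replicate block and 0 to 197 without 1 line. The change over days called 1519 genes, 644 at FDR 0.01, 961 without a filter, 2910 by DESeq2, 5297 with the replicate block and 90 to 3116 without 1 line. With the block and without 1 line it called 3173 (WT#1-4), 6332 (WT#20D-17), 3328 (Nox4-/-#5-8) and 2265 (Nox4-/-#5-23). Nox4-/-#5-8 against WT#1-4 had 3044 genes, 1484 at FDR 0.01, 1837 with no replicate block for day and 1489 to 2682 without 1 day. Nox4-/-#5-23 against WT#1-4 had 3642, 2100, 2350 and 2032 to 3820, and Nox4-/-#5-23 against Nox4-/-#5-8 had 1521, 655, 788 and 557 to 1795. Each member difference called in a main fit kept its sign under the alternatives. This does not cover differences called only under an alternative. Hbb-y was lower in Nox4-/- cells in the pooled comparison with WT#1-4, at -2.94 in log2 units. On day 14 without WT#1-4, with 1 wild type library left, it stood higher, at 8.97. The sign of its difference thus depended on the wild type line and day that entered. The cause of the shifts in counts was not tested, except that omitting lines leaves fewer libraries. Klf1 and Spi1, at a few counts per library, are limited by depth.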
